A study of Schizosaccharomyces pombe with 9 samples.

Results

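The *ade* genes of fission yeast encode the enzymes of purine synthesis. All 10 of them, *ade1* to *ade10*, were found by their *S. pombe* symbols in the array annotation, each with 1 probe set, among 2899 *S. pombe* genes with a named probe set. Total RNA came from untreated, exponentially growing cells (OD600 of 0.5 to 1.0) of 8 deletions involved in the DNA damage response and of wild type (WT), with 1 Affymetrix array per genotype. The deletions were *SPAC3F10.17*Δ and *ash2*Δ (cytometry class 2C of the study), *SPAC27D7.08c*Δ and *SPBC2A9.02*Δ (class 1C), with *meu29*Δ and *sgf73*Δ of class W4C and the pair *sec65*Δ and *pab1*Δ of class S4C. The WT label gives the strain as SP286 diploid, with the genotype h+ ade6-M210 ura4-D18 leu1-32. WT cells therefore carried a mutant allele of a gene described here. In the study's cytometry, the DNA content of untreated WT cells peaked at 2C, like that of the 2C class. Whether that WT was the strain of the array is not stated, so that the ploidy of the WT array is unsettled. The labels name no strain background for the deletions, which the study took from a commercial haploid library. Any difference in ploidy or background therefore cannot be told apart from the deletions in any ratio to WT. The study grew its strains in YES or EMM, and which of these media the array cultures had is not stated.

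Purines are built stepwise on phosphoribosyl pyrophosphate (PRPP) until inosine monophosphate (IMP) is formed, and IMP is then turned into AMP or GMP. Ade4 (amidophosphoribosyltransferase) makes the committed step. Ade1 carries a pair of activities (GAR synthetase and AIR synthetase), and between them act Ade5 (GAR formyltransferase) and Ade3 (FGAM synthase). Ade6 (AIR carboxylase), Ade7 (SAICAR synthetase), Ade8 (adenylosuccinate lyase) and Ade10 (AICAR transformylase and IMP cyclohydrolase) complete IMP. Ade2 (adenylosuccinate synthetase) and again Ade8 lead on to AMP. Ade9 (C1-tetrahydrofolate synthase) makes the folate carriers of the formyl groups that the pathway uses. Cells that lack Ade6 or Ade7 activity accumulate a red pigment and need adenine, which made *ade6* the classical marker of this yeast. The systematic names of the *ade* genes, in the order of the numbers 1 to 10, are SPBC405.01, SPAC144.03, SPAC6F12.10c, SPAC4D7.08c, SPCC569.08c, SPCC1322.13, SPBC409.10, SPBC14F5.09c, SPBC2G2.08 and SPCPB16A4.03c.

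Each value is a log2 signal as deposited, or a ratio of a deletion array to the WT array. Signals below the background of an array, taken from 2601 probe sets of *S. cerevisiae* genes (their 95th percentile), were raised to it, which touched no *ade* value. Between 2855 and 2872 genes lay above background, at 36.1 to 40.1 signal units. The transcripts of *sgf73*, *meu29* and *ash2* were at 0.0296, 0.0791 and at most 0.0434 of WT on their own deletion arrays, the last being at background. Those of *pab1* and *sec65* were at 0.609 and 0.679 on theirs, so that their loss was not seen, and these arrays are called by their labels throughout. The other deleted genes were not checked here. The signal of *ura4*, the gene of the ura4-D18 allele, was low on every array, at log2 values of 6.04 to 6.74. With 1 array per genotype no gene could be tested, and precision is limited by the small number of arrays. As the only yardstick of spread, the pair of most alike arrays, labelled *sec65*Δ and *pab1*Δ, differed by less than 0.27 log2 units for 95% of genes. They are of different genotypes and are not replicates.

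The *ade* genes stayed within 2-fold of WT in all 8 deletions. On all 9 arrays 9 of them lay above the median *S. pombe* gene, and *ade9* lay below it on 7. Of 80 ratios, 0 were at least 2-fold from WT in either direction, where 2.91% of the ratios of all measured genes were. Of the 80, 2 were at least 1.5-fold from WT, where 9.53% of all ratios were. Both belonged to *ade9*, in *meu29*Δ and *SPAC3F10.17*Δ. The highest and the lowest signal of an *ade* gene over the 9 arrays differed by a median of 1.40-fold, from 1.27-fold for *ade10* to 1.95-fold for *ade9*. The same median was 1.54-fold over 2884 measured genes and 1.44-fold over the 1511 genes at least as bright as *ade9*, the dimmest member. Past the spread of the most alike arrays, in either direction, were 17 of the 80 *ade* ratios (21.2%), a smaller share than the 32.9% of the ratios of all measured genes. A ratio past that spread was thus common among all genes, and the counts given below for single *ade* genes are descriptions.

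**Figure D1:**
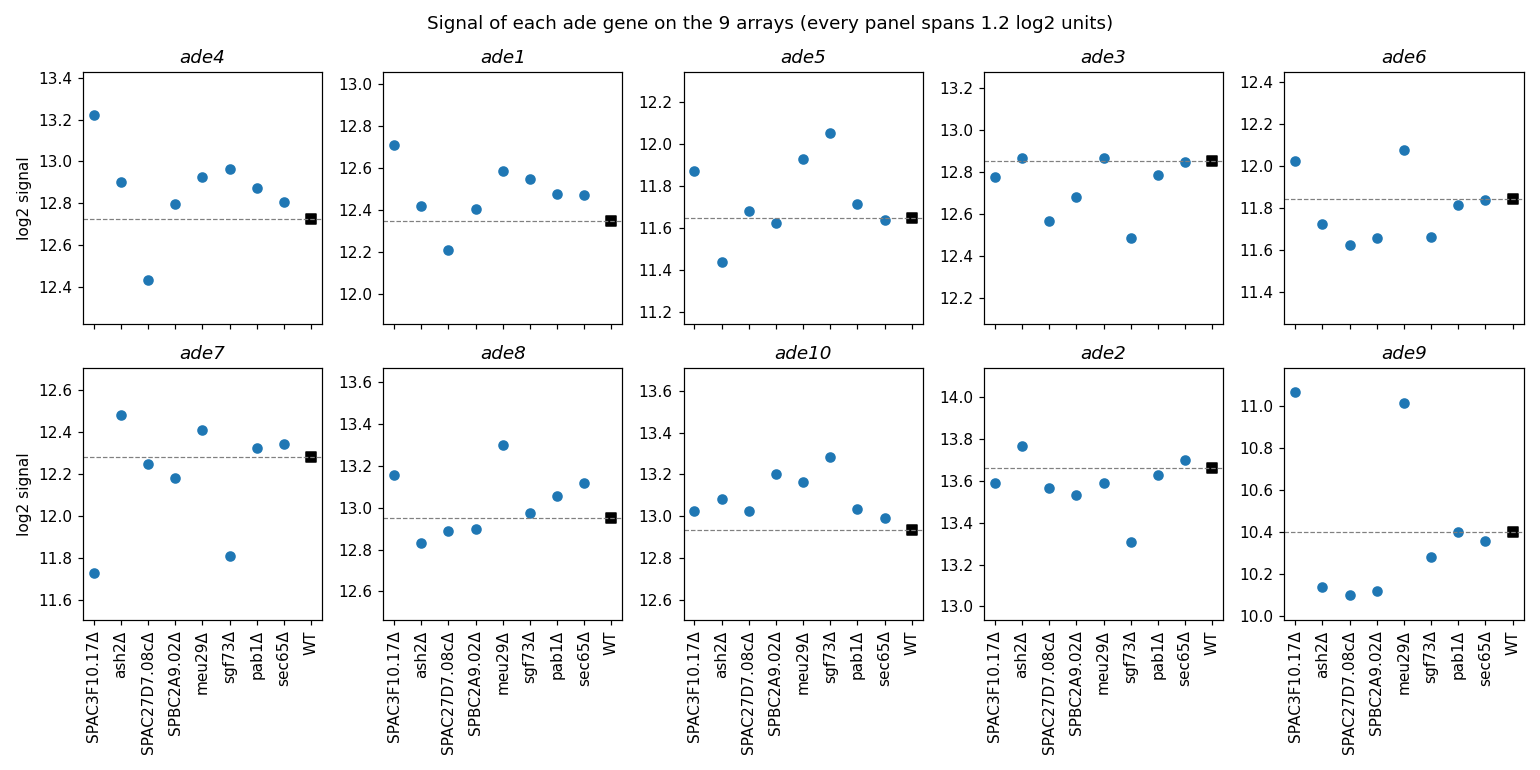
Log2 signal (y axis) of each *ade* gene on the 8 deletion arrays (circles) and the WT array (square and dashed line), 1 array per genotype, with pab1Δ and sec65Δ named by their labels. Every panel spans the same distance in log2 units, and *ade9* shows the widest range, with high points in SPAC3F10.17Δ and meu29Δ.

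*ade4*, the gene of the committed step, had log2 signals of 13.22 in *SPAC3F10.17*Δ, 12.90 in *ash2*Δ, 12.43 in *SPAC27D7.08c*Δ, 12.80 in *SPBC2A9.02*Δ, 12.93 in *meu29*Δ, 12.96 in *sgf73*Δ, 12.87 on the array labelled *pab1*Δ and 12.81 on that labelled *sec65*Δ, against 12.73 in WT. Its ratio to WT was highest in *SPAC3F10.17*Δ, at 1.41, and lowest in *SPAC27D7.08c*Δ, at 0.816. Only these passed the spread of the most alike arrays, and the other 6 ratios lay between 1.05 and 1.18. The *ade4* signal was therefore above WT on 7 arrays and below it on 1.

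*ade1* followed the same order of extremes, with a log2 signal of 12.71 in *SPAC3F10.17*Δ and 12.21 in *SPAC27D7.08c*Δ, against 12.35 in WT. Its ratios were 1.29 and 0.908 there, and 1.04 to 1.18 in the remaining 6 deletions. Over the 9 arrays the signals of *ade1* and *ade4* correlated more closely than those of any other pair of *ade* genes, at a Pearson r of 0.95.

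*ade5*, which encodes the GAR formyltransferase, was highest in *sgf73*Δ, with a log2 signal of 12.05 against 11.64 in WT, a ratio of 1.32. Next came *meu29*Δ (1.22) and *SPAC3F10.17*Δ (1.17). Its lowest ratio was 0.865, in *ash2*Δ, and the remaining 4 deletions stood between 0.985 and 1.05. The deletion with the highest *ade5* signal had the lowest signal of *ade3*, the gene of the next step. *ade3* was at 12.49 in *sgf73*Δ, against 12.85 in WT, a ratio of 0.776, and at 0.822 in *SPAC27D7.08c*Δ. In the other 6 deletions its ratios were 0.888 to 1.01, and the highest, 1.01, was reached in *ash2*Δ and *meu29*Δ.

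*ade6*, the gene mutated in the WT label, was measured well above background on every array. Its log2 signals were 12.03 in *SPAC3F10.17*Δ, 11.73 in *ash2*Δ, 11.62 in *SPAC27D7.08c*Δ, 11.66 in *SPBC2A9.02*Δ, 12.08 in *meu29*Δ, 11.67 in *sgf73*Δ, 11.82 on the array labelled *pab1*Δ and 11.84 on that labelled *sec65*Δ, against 11.85 in WT. Its ratios ran from 0.857 in *SPAC27D7.08c*Δ to 1.17 in *meu29*Δ. None of the 8 passed the spread of the most alike arrays, and *ade6* is the only *ade* gene of which this was true. Which *ade6* allele the deletions carried is not named in their labels, and a point mutation need not change the signal of a probe set.

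*ade7*, which encodes the enzyme after Ade6, had the lowest ratio of any *ade* gene. Its log2 signals were 11.73 in *SPAC3F10.17*Δ, 12.48 in *ash2*Δ, 12.25 in *SPAC27D7.08c*Δ, 12.18 in *SPBC2A9.02*Δ, 12.41 in *meu29*Δ, 11.81 in *sgf73*Δ, 12.32 on the array labelled *pab1*Δ and 12.34 on that labelled *sec65*Δ, against 12.28 in WT. *SPAC3F10.17*Δ and *sgf73*Δ stood apart from the other 7 arrays, at ratios of 0.683 and 0.721. The other 6 deletions had ratios of 0.933 to 1.15. The log2 ratio in *SPAC3F10.17*Δ was -0.55, just short of 1.5-fold, and was -0.62 after median scaling and -0.59 after quantile normalization, both past 1.5-fold. In the same deletion *ade4*, *ade1* and *ade9* had their highest ratios, so that genes of the same pathway lay on opposite sides of WT there.

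*ade8*, which acts in both the IMP and the AMP part, had ratios of 0.922 in *ash2*Δ to 1.27 in *meu29*Δ, and only that in *meu29*Δ passed the spread of the most alike arrays. *ade10*, which encodes the enzyme of the final steps to IMP, was the only *ade* gene above WT in all 8 deletions, where 8.85% of all genes were above WT in all 8. Its log2 signals were 13.03 in *SPAC3F10.17*Δ, 13.08 in *ash2*Δ, 13.03 in *SPAC27D7.08c*Δ, 13.20 in *SPBC2A9.02*Δ, 13.17 in *meu29*Δ, 13.28 in *sgf73*Δ, 13.04 on the array labelled *pab1*Δ and 12.99 on that labelled *sec65*Δ, against 12.93 in WT. The differences were small, with ratios of 1.04 to 1.27, and 2 of them, in *sgf73*Δ and *SPBC2A9.02*Δ, passed the spread of the most alike arrays, no larger a share than among all ratios. All 8 ratios share the WT array, in which *ade10* had its lowest signal. Of the *ade* genes, 0 were below WT in all 8 deletions, as were 5.66% of all genes.

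*ade2*, the gene of the step from IMP towards AMP, had a ratio of 0.785 in *sgf73*Δ, with a log2 signal of 13.31 against 13.66 in WT. In the other 7 deletions its ratios were 0.916 to 1.08. Thus *sgf73*Δ held the lowest signal of both *ade2* and *ade3*.

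*ade9*, the gene of the folate enzyme, varied most. Its log2 signals were 11.06 in *SPAC3F10.17*Δ, 10.14 in *ash2*Δ, 10.10 in *SPAC27D7.08c*Δ, 10.12 in *SPBC2A9.02*Δ, 11.01 in *meu29*Δ, 10.28 in *sgf73*Δ, 10.40 on the array labelled *pab1*Δ and 10.36 on that labelled *sec65*Δ, against 10.40 in WT. *SPAC3F10.17*Δ and *meu29*Δ lay far above the other 7 arrays, at ratios of 1.59 and 1.53. *SPAC27D7.08c*Δ and *SPBC2A9.02*Δ were the lowest, at 0.813 and 0.824, and *ash2*Δ was at 0.835. The high values did not follow a cytometry class, since *ash2*Δ and *sgf73*Δ, the class partners of *SPAC3F10.17*Δ and *meu29*Δ, were at or below WT. Against the median of the other 7 deletions in place of WT, the log2 ratio of *ade9* was 0.78 for the *SPAC3F10.17*Δ array and 0.73 for that of *meu29*Δ.

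**Figure D2:**
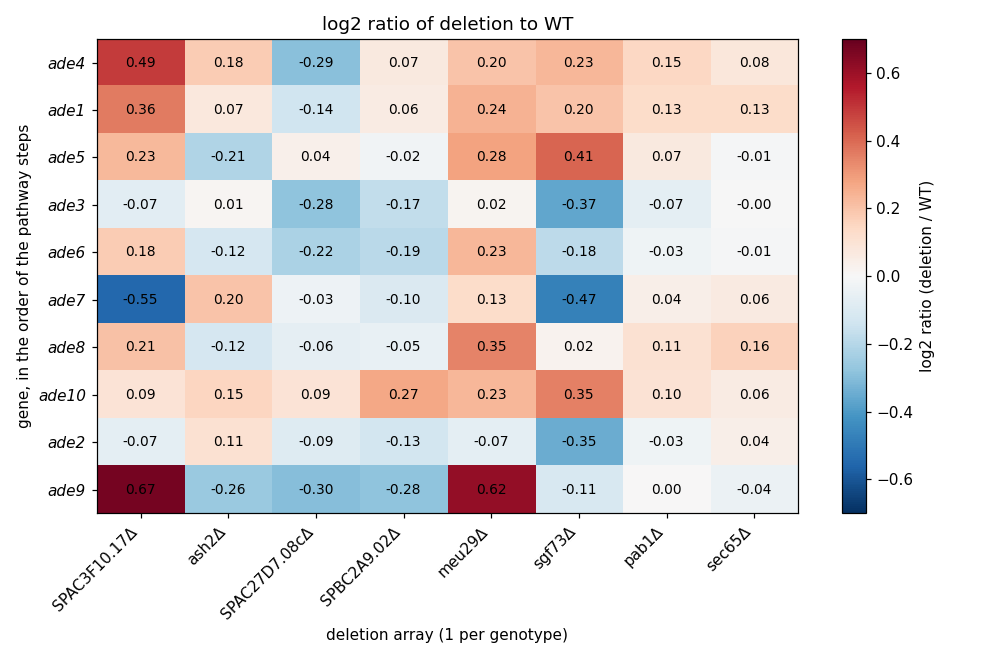
Log2 ratio of each deletion array to the WT array (colour and printed value, red above and blue below WT) for the *ade* genes, listed in the order of the pathway steps with the folate gene *ade9* last; columns are the 8 deletions, with pab1Δ and sec65Δ named by their labels. The values run from -0.55 for *ade7* to 0.67 for *ade9*, both in SPAC3F10.17Δ.

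Read by deletion, the genes lay mostly above WT in *meu29*Δ and *SPAC3F10.17*Δ and mostly below it in *SPAC27D7.08c*Δ and *SPBC2A9.02*Δ. The median of all genes lay on the same side of WT in each of these deletions, though barely so in *SPAC27D7.08c*Δ. The share of all genes on that side was not counted, so that the counts of *ade* genes are descriptions. In *meu29*Δ 9 of 10 were above WT, and the median log2 ratio was 0.23, beside 0.064 over all genes. Only *ade2* was below, though after median scaling or quantile normalization *ade3* joined it and 8 of 10 were above. In *SPAC3F10.17*Δ 7 of 10 were above WT, with a median of 0.19 beside 0.073 over all genes, and *ade2*, *ade3* and *ade7* were below. Ratios at least 1.5-fold from WT were 1 of 10 in each of these deletions, where 16.2% of all genes in *meu29*Δ and 11.6% in *SPAC3F10.17*Δ were. The shares of the *ade* genes were thus close to those of all genes.

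In *SPAC27D7.08c*Δ 8 of 10 were below WT, with a median of -0.12 beside -0.0013 over all genes, and only *ade5* and *ade10* were above. In *SPBC2A9.02*Δ 7 of 10 were below, with a median of -0.077 beside -0.030. No ratio reached 1.5-fold in these deletions, where 6.76% and 6.28% of all genes did. Most members thus lay below WT in both deletions, by small amounts. The median of all genes lay below WT by less, and in *SPAC27D7.08c*Δ it was practically at WT.

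In *sgf73*Δ 5 genes lay above WT and 5 below, with a median of -0.046 beside 0.057 over all genes. Their log2 ratios, from -0.47 to 0.41, all lay within the 5th to 95th percentile of all genes there (-0.82 to 0.75). *ade5* (1.32), *ade10* (1.27), *ade4* (1.18) and *ade1* (1.15) were the highest, and *ade7* (0.721), *ade3* (0.776) and *ade2* (0.785) the lowest. The median size of the log2 ratio, regardless of sign, was 0.29 for the *ade* genes and 0.22 for genes at least as bright, while in *meu29*Δ these were 0.23 and 0.20. No ratio reached 1.5-fold in *sgf73*Δ, where 18.4% of all genes did. In the remaining arrays the *ade* genes were close to WT. Their ratios were 0.835 to 1.15 in *ash2*Δ, 0.955 to 1.11 on the array labelled *pab1*Δ and 0.972 to 1.12 on the array labelled *sec65*Δ, and none passed the spread of the most alike arrays, which 33.7% of all genes passed in *ash2*Δ, 21.1% on the array labelled *pab1*Δ and 18.5% on that labelled *sec65*Δ. Here too no *ade* gene reached 1.5-fold, as did 8.50% of all genes in *ash2*Δ and 4.46% on the array labelled *pab1*Δ and 3.97% on that labelled *sec65*Δ.

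**Figure D3:**
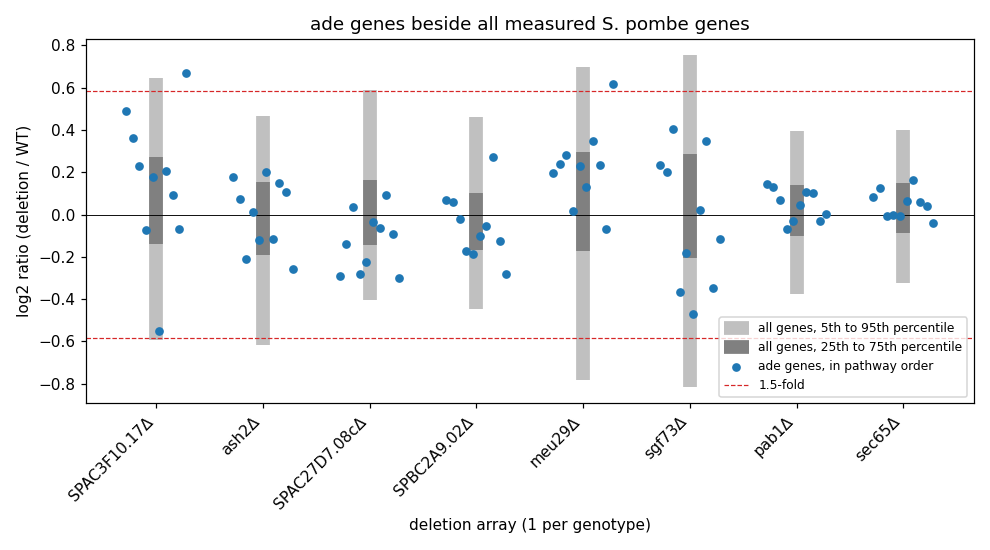
Log2 ratio to WT (y axis) of the *ade* genes (points, in pathway order from left to right within each deletion) beside all measured *S. pombe* genes (grey bars, percentiles as in the legend) in each deletion, 1 array per genotype, with pab1Δ and sec65Δ named by their labels. Only the rightmost point, *ade9*, passes the 1.5-fold lines, in SPAC3F10.17Δ and meu29Δ.

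The *ade* genes did not vary as 1 block over the 9 arrays. Of their 45 pairs, 28 had a Pearson r above 0, with a median r of 0.28. Signals of *ade6* and *ade9* went together (r = 0.95), as did those of *ade8* with *ade9* and with *ade6* (0.88 each) and those of *ade2* and *ade3* (0.85). *ade2* ran opposite to *ade5* (-0.79) and *ade10* (-0.73), and *ade7* opposite to *ade5* (-0.66). These correlations rest on 9 arrays of different genotypes, whose normalization is not stated. Apart from the lowest *ade10* signal, in WT, the highest and lowest signals of the members fell in *SPAC3F10.17*Δ, *sgf73*Δ, *SPAC27D7.08c*Δ, *ash2*Δ and *meu29*Δ. Against the mean of the other members, r was highest for *ade6* (0.94), *ade8* (0.86) and *ade9* (0.83) and lowest for *ade7* (-0.27) and *ade10* (-0.12).

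**Figure D4:**
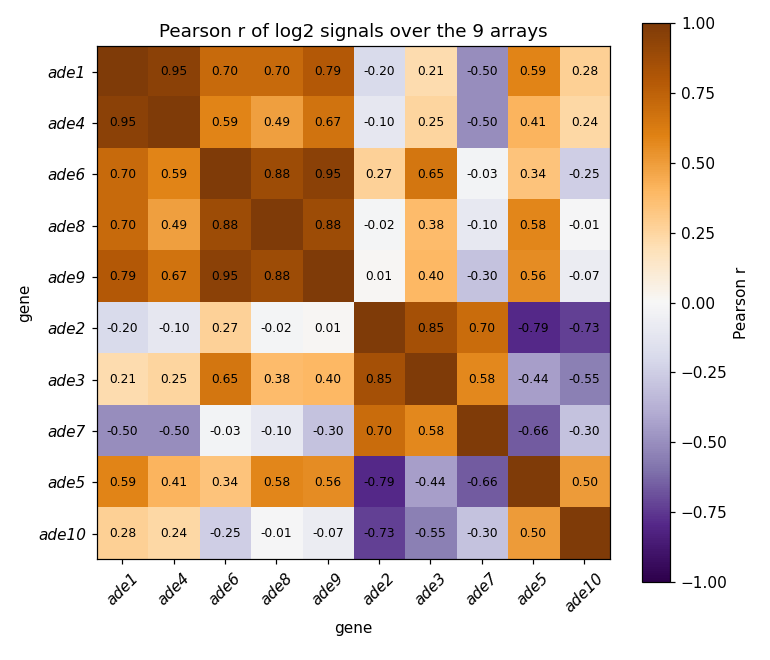
Pearson r of the log2 signals over the 9 arrays for each pair of *ade* genes (colour and printed value). *ade1* with *ade4* (0.95) and *ade6* with *ade9* (0.95) are the highest, and *ade2* with *ade5* (-0.79) is the lowest.

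Among 2827 other genes above background on every array, *fft1*, which encodes a Snf2-family ATPase, had the pattern most like the mean of the *ade* genes, at r = 0.99 over 9 arrays. Its ratios to WT were 1.53 in *meu29*Δ, 1.34 in *SPAC3F10.17*Δ, 0.752 in *SPAC27D7.08c*Δ and, for *SPBC2A9.02*Δ, 0.835. Next came *esf1* (0.96) and *utp4* (0.94), both ribosomal RNA processing genes, *prp43* (0.95), which encodes a DEAH-box helicase, and *snf21* (0.94), which encodes a chromatin remodelling ATPase. The most opposite patterns were those of *gsk31* (-0.96), a protein kinase gene, *mug168* (-0.93), *gos1* (-0.93), *mug147* (-0.92) and *idh2* (-0.92), an isocitrate dehydrogenase gene. Over so few arrays many genes reach high correlations, so that these names are a description only.

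Among genes around the pathway, those of GMP synthesis and purine salvage included 1 gene with 2-fold differences from WT, *dea2*. Of 10 listed, 7 had a named probe set. *dea2*, which encodes adenine deaminase, had log2 signals of 11.31 in *SPAC3F10.17*Δ, 11.10 in *ash2*Δ, 9.70 in *SPAC27D7.08c*Δ, 9.39 in *SPBC2A9.02*Δ, 10.71 in *meu29*Δ, 10.41 in *sgf73*Δ, 11.01 on the array labelled *pab1*Δ and 10.81 on that labelled *sec65*Δ, against 11.13 in WT. Its ratio to WT was thus 0.371 for *SPAC27D7.08c*Δ and 0.299 for *SPBC2A9.02*Δ, the only 2-fold differences among 56 ratios of the list, and 0.607 to 1.13 in the other deletions. At least 2-fold from WT were 2.91% of the ratios of all measured genes. Of the 56, 1 was at least 1.5-fold higher and 4 were at least 1.5-fold lower, beside 9.53% of all ratios in either direction. The list thus lay near the shares of all genes. *SPAC27D7.08c*Δ and *SPBC2A9.02*Δ are the deletions in which most *ade* genes lay below WT. *hpt1*, which encodes the hypoxanthine-guanine salvage enzyme, was at 1.53 in *meu29*Δ and 1.49 in *SPAC3F10.17*Δ, the deletions in which *ade9* was high, and at 0.821 to 1.26 elsewhere. *ada1*, an AMP deaminase gene, was at 0.606 in *sgf73*Δ. *adk1*, the adenylate kinase gene, was above WT in all 8 deletions by little (1.02 to 1.22), as were 8.85% of all genes by any amount. *gua1* and *gua2*, which lead from IMP to GMP, had ratios of 0.977 to 1.22 and 0.811 to 1.16.

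In the list of PRPP synthesis, one-carbon and folate genes, 9 of 15 had a named probe set, and 10 of their 72 ratios were at least 1.5-fold higher than WT, as were 4.95% of the ratios of all measured genes, and 0 were 1.5-fold lower. The glycine cleavage genes *gcv1*, *gcv2* and *gcv3*, whose complex passes a carbon from glycine to folate, held 9 of these 10. *gcv2* had ratios of 1.22 to 1.95 and *gcv3* of 1.07 to 1.69, above WT in all 8 deletions, as were 8.85% of all genes. Those of *gcv1* were 0.917 to 1.59. All 3 were highest in *SPBC2A9.02*Δ or *meu29*Δ and lowest in *ash2*Δ. All these ratios share the WT array. Against the median of the other 7 deletions in place of WT, none of the 3 genes was 1.5-fold higher on any array. Their highest log2 ratios were then 0.26 for *gcv1* and 0.34 for *gcv2* and *gcv3*. That reference removes any rise that the deletions share, so it cannot tell such a rise from a low signal on the WT array. *ade9* did not share their pattern, since in *SPBC2A9.02*Δ it was below WT. The remaining one was *prs5*, a PRPP synthetase gene, just past 1.5-fold in *SPAC3F10.17*Δ, which is named because its value had been seen. *shm2*, a serine hydroxymethyltransferase gene, and *dfr1*, the dihydrofolate reductase gene, stayed between 0.751 and 1.23, and *met11*, a methylenetetrahydrofolate reductase gene, between 0.732 and 1.04.

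**Figure D5:**
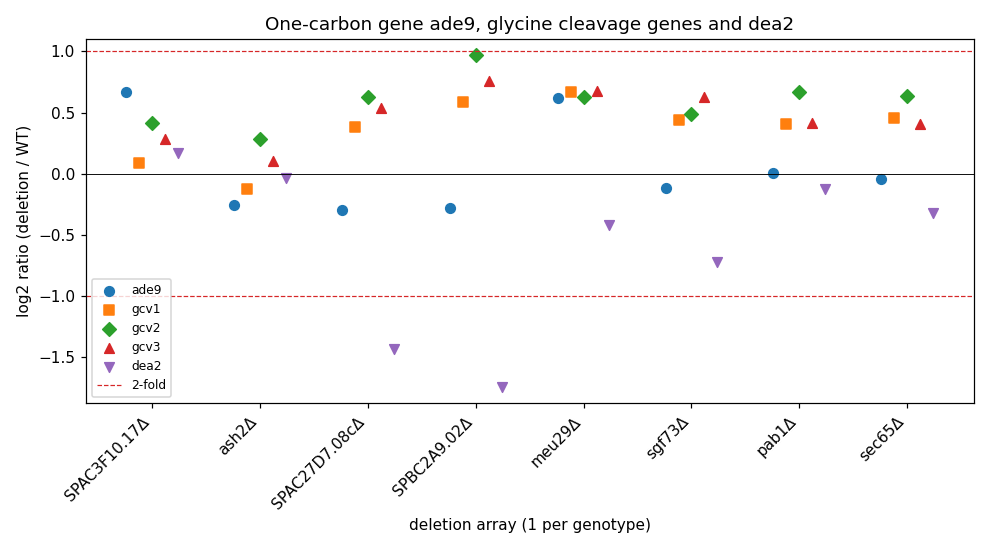
Log2 ratio to WT (y axis) of *ade9*, the glycine cleavage genes *gcv1* to *gcv3* and the adenine deaminase gene *dea2* in each deletion (x axis), 1 array per genotype, with pab1Δ and sec65Δ named by their labels. *dea2* passes the lower 2-fold line in SPAC27D7.08cΔ and SPBC2A9.02Δ only, while *gcv2* and *gcv3* lie above 0 in all 8.

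Histidine synthesis, which returns AICAR to the purine pathway, had 6 of 9 genes measured, and 1 of 48 ratios was at least 1.5-fold from WT, a smaller share than the 9.53% of all ratios, that of *his4* in *sgf73*Δ (0.551). *his4* was also at 0.717 in *SPAC3F10.17*Δ and 0.697 in *SPBC2A9.02*Δ. Pyrimidine synthesis had 5 of 8 genes measured, and 3 of 40 ratios were at least 1.5-fold higher, beside 4.95% of all ratios, those of *ura3* in *sgf73*Δ (1.51), *ura5* in *SPAC3F10.17*Δ, just past 1.5-fold, and the marker *ura4* in *ash2*Δ (1.62), the last at low signals. The median log2 ratios of the salvage, one-carbon, histidine and pyrimidine lists were -0.30, -0.045, -0.17 and -0.31 in *SPAC27D7.08c*Δ, where that of the *ade* genes was -0.12. They were 0.22, 0.27, 0.39 and 0.49 in *meu29*Δ, where that of the *ade* genes was 0.23. In *SPBC2A9.02*Δ they were -0.14, 0.14, -0.21 and 0.15, and in *sgf73*Δ -0.19, -0.017, -0.11 and 0.28, so that lists lay on both sides of WT in these deletions, where the *ade* medians were below it. In the other 4 deletions the medians of all 4 lists were above WT, as were those of the *ade* genes.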

How the data were processed

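The authors hybridised biotinylated cRNA (GeneChip 3' IVT Express kit) to Affymetrix Yeast Genome 2.0 arrays, and a company analysed the data. The deposited values were read as log2 signals from their range, and their median over *S. pombe* genes ran from 10.48 to 10.58 between arrays. MAS5 appears in the submitters' processing notes with no role, and how the arrays were normalized is not stated in the sources used here. Of 10928 probe sets, 2917 were matched to 2899 *S. pombe* genes by Entrez ID, or by symbol where an ID had been retired (assembly ASM294v3, used for names only). For genes with several probe sets, the one with the highest mean signal was used. The background of an array was set from 2601 *S. cerevisiae* probe sets (95th percentile). Ratios were 2 to the power of the log2 difference from WT.

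No p-value was computed, since each genotype had 1 array. The rule for naming genes took all 10 *ade* genes, the deleted genes and the strain markers *ura4* and *leu1*, the 3 highest and 3 lowest genes of each related list by mean log2 ratio over the 8 deletions with any gene 2-fold from WT, and the 5 most alike and 5 most opposite patterns by Pearson r. *leu1* signals were 13.57 to 13.70 on all arrays. The members and lists were chosen with earlier results of these data known. Each value was recomputed after scaling arrays to the same median, after quantile normalization, with the background floor dropped or taken at the 99th percentile, with 50 signal units added before taking logs, with all probe sets averaged per gene, and with WT replaced by the median over the other 7 deletions. Counts were repeated leaving out the pair of most alike arrays, and likeness without WT and by Spearman rank. The calculation of ratios was tested on simulated data with 200 changed genes per deletion. Python 3.11.15, numpy 2.4.6, pandas 2.3.3 and matplotlib 3.10.9 were used.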

Additional observations from a re-analysis of the deposited data

How the results depend on the processing

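No paired analysis was possible because each genotype had 1 array and all share the number 1. The median log2 ratio of the *ade* genes in each deletion moved by less than the SD of 0.14 between the most alike arrays under all 7 alternatives, though its sign turned in *ash2*Δ (-0.012) against the other 7 deletions. The number of *ade* ratios at least 1.5-fold from WT was 3 in place of 2 after median scaling, after quantile normalization and against the other 7 deletions, the added one being *ade7* in *SPAC3F10.17*Δ. The number at least 2-fold from WT was 0 under every alternative run. Quantile normalization put 1 *ade* gene, *ade3*, below WT in all 8 deletions, in place of 0. Set against the other 7 deletions in place of WT, the glycine cleavage genes had no 1.5-fold ratio, and the mean over deletions of the list median was -0.050 for histidine and 0.00084 for pyrimidine synthesis, where WT gave 0.090 and 0.21, and *ade10* lay above the other deletions in 4 and below them in 4. By its construction that reference puts each gene above in 4 deletions and below in 4, so that the split of *ade10* is no result. It also removes any difference from WT that the deletions share. The values of the glycine cleavage genes and of the histidine and pyrimidine lists under it therefore cannot tell a shared rise from a low WT signal. Without replicates, the smallest difference that these arrays resolve was not measured. By Spearman rank in place of Pearson r, the likeness of *ade7* to the other members was 0.10 in place of -0.27, and that of *ade10* -0.30 in place of -0.12.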
